A study of Arabidopsis thaliana with 24 samples.

Results

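Histone H4 was encoded by 8 genes in the tables of this series: AT1G07660, AT1G07820, AT2G28740 (symbol HIS4), AT3G45930, AT3G46320, AT3G53730, AT5G59690 and AT5G59970. They were taken by their identifiers from the 32548 genes listed at each age, without use of any measured value, and all 8 passed the filter on low values at both ages. RNA sequencing of Arabidopsis thaliana seedlings had been used to compare mutant plants with the wild type Col-0. The mutants lacked members of an H3-H4 handling complex, called here the NuB4 genes (HAG2, MSI2, MSI3 and NASP). At 12 days, seedlings raised on Murashige and Skoog plates gave 3 libraries each of hag2-/- nasp-/-, msi2-/- msi3-/- nasp-/-, hag2-/- msi2-/- msi3-/-, nasp-/- and the wild type, 15 in all. At 20 days, plants of a growth chamber gave 3 libraries each of hag2-/- msi2-/- msi3-/-, msi2-/- msi3-/- and the wild type, 9 in all. Days had 16 h of light at 22 °C, and no treatment was named. The sources used here name no alleles and do not say whether the libraries of a group came from plants grown apart, so the p-values cover the spread among these samples alone, which may be technical.

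Histone H4 pairs with H3, and the H3-H4 dimers are deposited on DNA behind the replication fork, so H4 genes are known for their high expression in dividing cells. Newly made H4 is acetylated in the cytoplasm on lysines 5 and 12 of its tail by type B acetyltransferases. HAG2 is the Arabidopsis enzyme of that type, MSI2 and MSI3 are WD40 proteins of the family that binds H4 and presents it to the enzyme, and NASP is a chaperone that holds H3.

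The 8 genes coded for the same protein with 8 different coding sequences. Each had 1 coding exon of 312 bases, and the 103 residues translated from it, the first methionine included, were identical in all 28 pairs of genes, in TAIR10.1. The lysines of the tail stood at positions 5, 8, 12, 16 and 20, counted without the first methionine. The coding sequences were 78.85 to 98.08% identical. The first 60 coding bases of each gene are shown here, read 5′ to 3′ on the coding strand of TAIR10.1 (RefSeq), because how well copies can be told apart bears on every value that follows. Capitals mark bases that differ from AT3G53730.
AT1G07660: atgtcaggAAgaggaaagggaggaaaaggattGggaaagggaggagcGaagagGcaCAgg
AT1G07820: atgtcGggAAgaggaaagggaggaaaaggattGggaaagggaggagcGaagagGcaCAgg
AT2G28740: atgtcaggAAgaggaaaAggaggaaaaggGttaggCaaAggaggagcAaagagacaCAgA
AT3G45930: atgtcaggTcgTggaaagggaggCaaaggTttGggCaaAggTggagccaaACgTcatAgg
AT3G46320: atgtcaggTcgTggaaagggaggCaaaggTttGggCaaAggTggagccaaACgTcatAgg
AT3G53730: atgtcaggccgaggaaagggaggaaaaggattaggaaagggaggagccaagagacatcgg
AT5G59690: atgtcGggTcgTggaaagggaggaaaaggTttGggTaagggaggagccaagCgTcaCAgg
AT5G59970: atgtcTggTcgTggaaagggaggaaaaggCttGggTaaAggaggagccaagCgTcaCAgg

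The genes fell into 3 near-identical pairs and 2 single genes. AT1G07660 and AT1G07820 differed at 6 of 312 coding bases, AT3G45930 and AT3G46320 at 8, and AT5G59690 and AT5G59970 at 9, while AT2G28740 and AT3G53730 differed from every other H4 gene at 54 bases or more. The 50-base reads used at 12 days could be shared within a pair. Of all 50-base stretches of its exons, 69.2% occurred once in the genome for AT1G07660, 80.6% for AT1G07820, 74.3% for AT3G45930, 72.1% for AT3G46320, 91.5% for AT5G59690 and 93.1% for AT5G59970. For AT2G28740 and AT3G53730 every stretch did. At the 150 bases read at 20 days, each gene had 97.8% or more. The counting of reads that match more than 1 copy was not given in the sources used here. Therefore at 12 days the split within a pair is less certain than its sum, while AT2G28740 and AT3G53730 share no stretch of that length with another place in the genome.

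The deposited values are reads per gene after a normalization by the authors, and not whole numbers. Library totals ranged from 19.6 to 21.0 M at 12 days and from 45.7 to 48.2 M at 20 days, and the reads behind a single value are unknown. NASP, HAG2 and MSI3 stood at 30.8% of the wild type or less in each group named after them. MSI2 stood at 45.3% in msi2 msi3 nasp seedlings and 46.2% in msi2 msi3 at 20 days, but at 92.9% at 12 days and 82.1% at 20 days in the libraries labelled hag2 msi2 msi3. That group's label was therefore not borne out for MSI2, and every direction given for it holds for the libraries so labelled.

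AT3G53730 had the highest log2 fold change of the 8 genes in all 6 comparisons against the wild type. It lies on chromosome 3, 19912385 to 19913515, minus strand (TAIR10.1), in 1 exon. At 12 days its deposited values were 7473, 8245 and 8499.6 in hag2 nasp seedlings, 7768, 7297 and 8132 in msi2 msi3 nasp seedlings, 2417, 2451 and 2212 in hag2 msi2 msi3, 2823, 3093 and 2754 in nasp and 1111, 1062 and 1052 in the wild type. Every mutant library lay above every wild type library, and the libraries of both nasp combinations lay far above those of hag2 msi2 msi3 and nasp. The group mean was 7.51 times that of the wild type in hag2 nasp, 7.19 times in msi2 msi3 nasp, 2.19 times in hag2 msi2 msi3 and 2.69 times in nasp. On the log2(value + 1) scale of the limma fit, the scale of every fold change and standard error here, the gene rose by 2.91 ± 0.06 in hag2 nasp, with a Benjamini-Hochberg adjusted p of 1.24e-15. It rose by 2.84 ± 0.06 in msi2 msi3 nasp (limma adjusted p = 1.02e-15), by 1.13 ± 0.06 in hag2 msi2 msi3 (limma adjusted p = 9.85e-09) and by 1.42 ± 0.06 in nasp (limma adjusted p = 3.10e-10). The next gene in each comparison stood at 2.38 in hag2 nasp, 2.41 in msi2 msi3 nasp, 1.11 in hag2 msi2 msi3 and 0.92 in nasp, so the lead was within the standard errors in hag2 msi2 msi3. It was also within them at 20 days, where AT5G59970 came next, at 0.81 beside 0.83 in hag2 msi2 msi3 and at 0.97 beside 1.02 in msi2 msi3. The difference in response between genes was not tested.

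AT2G28740, the other gene with no shared stretch of 50 bases, rose in every mutant group too. It lies on chromosome 2, 12329345 to 12330059, minus strand. Its values at 12 days were 3201, 3511 and 4235 in hag2 nasp seedlings, 3277, 3164 and 4195 in msi2 msi3 nasp seedlings, 1408, 1543 and 1378 in hag2 msi2 msi3, 1655, 1534 and 1408 in nasp and 769.6, 767 and 893 in the wild type. The nasp combinations again formed the upper level, and no mutant library overlapped the wild type. The log2 fold change was 2.16 ± 0.11 in hag2 nasp, 2.12 ± 0.11 in msi2 msi3 nasp, 0.83 ± 0.11 in hag2 msi2 msi3 and 0.92 ± 0.11 in nasp, with limma adjusted p between 6.06e-12 and 1.61e-04.

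AT5G59690 had the highest level per length of the 8 genes in all 8 groups. It lies on chromosome 5, 24051474 to 24052218, plus strand, 1 exon long. Its 12-day values were 4723, 5299 and 6164 in hag2 nasp seedlings, 5701, 5356 and 6937 in msi2 msi3 nasp seedlings, 2224, 2311 and 2309.6 in hag2 msi2 msi3, 2211, 2091 and 2145 in nasp and 1381, 1279 and 1403 in the wild type. All mutant libraries were above the wild type ones. The log2 fold change was 1.99 ± 0.09 in hag2 nasp, 2.14 ± 0.09 in msi2 msi3 nasp, 0.75 ± 0.09 in hag2 msi2 msi3 and 0.67 ± 0.09 in nasp, the last being the lowest nasp value among the 7 genes that rose. Its near-identical partner AT5G59970 (chromosome 5, 24145831 to 24146729, minus strand) had 1093, 1169.7 and 1408 in hag2 nasp seedlings, 1300.0, 1223 and 1538 in msi2 msi3 nasp seedlings, 778, 814 and 744 in hag2 msi2 msi3, 658, 693 and 609 in nasp and 345, 368 and 396 in the wild type. In hag2 msi2 msi3 its rise of 1.07 ± 0.09 (limma adjusted p = 2.93e-06) was above that of AT5G59690, whereas in hag2 nasp and msi2 msi3 nasp its rises of 1.72 ± 0.09 and 1.87 ± 0.09 were below it.

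AT1G07820 rose strongly and its partner AT1G07660 little. AT1G07820 (chromosome 1, 2421089 to 2422066, minus strand, 1 or 2 exons) had 3065, 3322 and 4093 in hag2 nasp seedlings, 3326, 3287 and 4085 in msi2 msi3 nasp seedlings, 1306, 1353 and 1137 in hag2 msi2 msi3, 1244, 1215 and 1161 in nasp and 598, 688 and 717 in the wild type. Its rises of 2.38 ± 0.10 in hag2 nasp seedlings and 2.41 ± 0.10 in msi2 msi3 nasp came next after those of AT3G53730. AT1G07660 (chromosome 1, 2368833 to 2369735, plus strand, 2 transcripts of 2 and 3 exons) was the lowest H4 gene per length in every group. Its values were 294, 293 and 335 in hag2 nasp seedlings, 302, 299.8 and 321 in msi2 msi3 nasp seedlings, 188, 184 and 171 in hag2 msi2 msi3, 191, 184 and 187 in nasp and 178, 140.0 and 149.6 in the wild type. The wild type range overlapped that of hag2 msi2 msi3 and lay below those of the other groups. AT1G07660 rose by 0.98 ± 0.09 in hag2 nasp (limma adjusted p = 4.07e-08) and 0.98 ± 0.09 in msi2 msi3 nasp (limma adjusted p = 4.00e-08). It did not pass the test in hag2 msi2 msi3, at 0.22 ± 0.09 (limma adjusted p = 0.218), or in nasp, at 0.27 ± 0.09 (limma adjusted p = 0.140). Without wild type replicate 1, its highest wild type library, the difference in nasp was 0.37 and passed (limma adjusted p = 0.0403).

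The pair on chromosome 3, AT3G45930 (chromosome 3, 16883316 to 16884009, plus strand) and AT3G46320 (chromosome 3, 17019785 to 17020428, minus strand), both of 1 exon, followed the common course. AT3G45930 had 983, 973 and 1135 in hag2 nasp seedlings, 1043, 998 and 1207 in msi2 msi3 nasp seedlings, 455, 499.9 and 452 in hag2 msi2 msi3, 350.3, 453 and 428 in nasp and 219.6, 226 and 246 in the wild type. AT3G46320 had 885, 855 and 1042 in hag2 nasp seedlings, 981, 925 and 1240.5 in msi2 msi3 nasp seedlings, 654, 621 and 541 in hag2 msi2 msi3, 464, 534 and 508 in nasp and 258, 288 and 291 in the wild type. No mutant library of either gene reached down to the wild type. The log2 fold changes of AT3G45930 were 2.15 ± 0.10 in hag2 nasp, 2.22 ± 0.10 in msi2 msi3 nasp, 1.02 ± 0.10 in hag2 msi2 msi3 and 0.82 ± 0.10 in nasp. Those of AT3G46320 were 1.73 ± 0.10, 1.90 ± 0.10, 1.11 ± 0.10 and 0.84 ± 0.10 in the same groups. By deposited values AT3G46320 had the higher mean of the pair in every 12-day group but hag2 nasp and msi2 msi3 nasp. Per kilobase of exon it was higher in all but hag2 nasp, at 1440 beside 1485 for AT3G45930. In msi2 msi3 nasp AT3G46320 stood at 1629 and AT3G45930 at 1560 per kilobase. The libraries of the 2 genes overlapped in both nasp combinations.

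**Figure D1:**
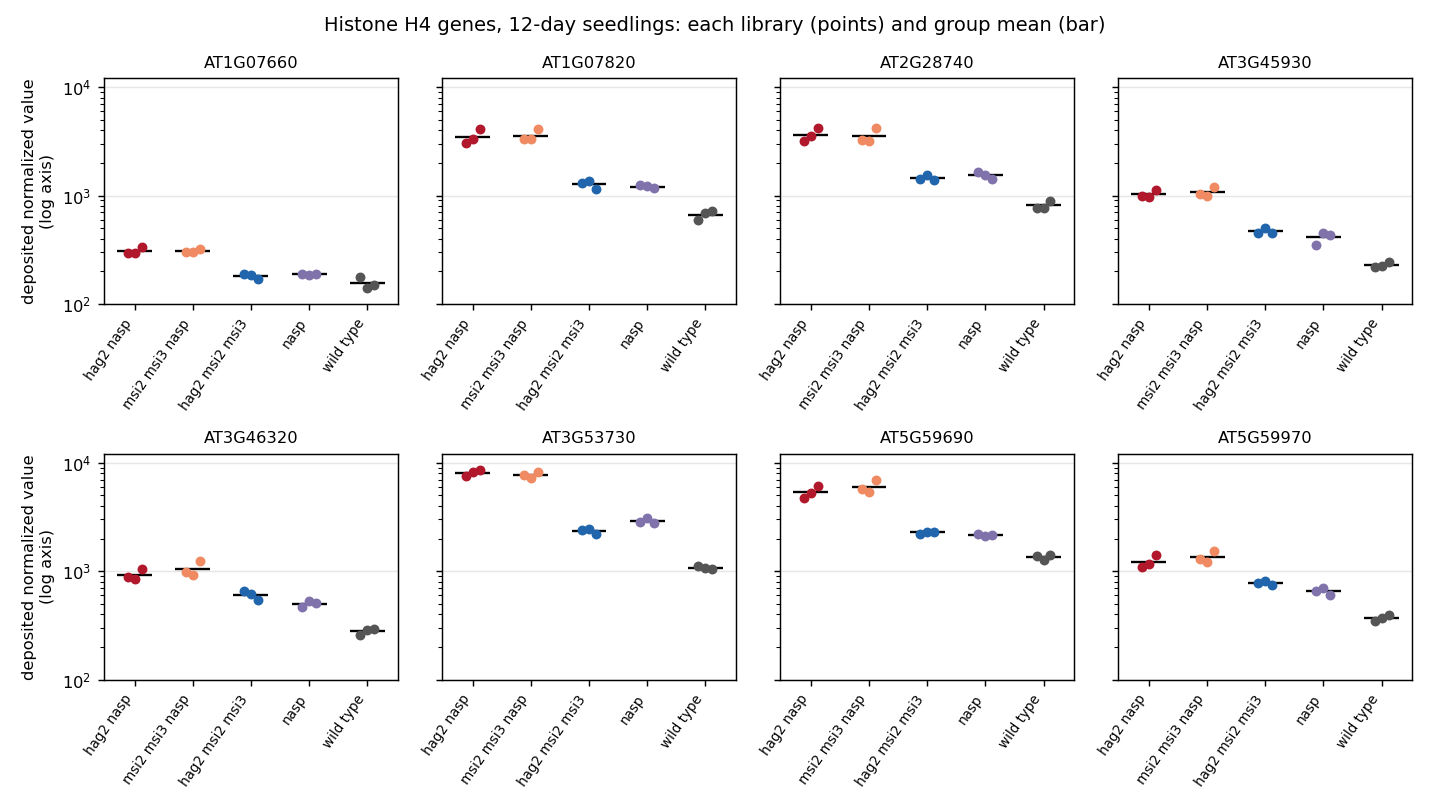
Deposited normalized values of the 8 H4 genes in 12-day seedlings, on a log axis, with 1 panel per gene; points are the 3 libraries of a group and bars are group means. In 7 panels every mutant library lies above the wild type, and in AT1G07660 the hag2 msi2 msi3 and wild type libraries overlap. The share of all genes with libraries so apart was not computed.

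By count at 12 days, 8 of 8 H4 genes rose in hag2 nasp and 8 of 8 in msi2 msi3 nasp, while 33.1% and 33.6% of the 24305 genes tested were called higher in these comparisons. In hag2 msi2 msi3 and in nasp, 7 of 8 rose, against 2.08% and 2.5% of all genes tested. All 8 log2 fold changes were above 0 in all 4 comparisons. The median log2 fold change of the 8 genes was 2.07 in hag2 nasp, 2.13 in msi2 msi3 nasp, 0.97 in hag2 msi2 msi3 and 0.83 in nasp, beside medians of 0.00 over all genes tested. In the comparisons of the nasp combinations with the wild type, 66.3% and 66.8% of all genes were called in either direction, so there a call alone sets a gene little apart. All comparisons at an age share the wild type libraries and are not independent of each other.

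Summed over the 8 genes, H4 reached 21718, 23669 and 26912 in the libraries of hag2 nasp, 23698, 22550.3 and 27654 in msi2 msi3 nasp seedlings, 9430.3, 9777 and 8945 in hag2 msi2 msi3, 9597, 9797 and 9201 in nasp and 4860.5, 4818 and 5148 in the wild type. The sums formed 3 levels that did not overlap: both nasp combinations, then hag2 msi2 msi3 together with nasp, then the wild type. The means were 24099.6 ± 2624 in hag2 nasp, 24634 ± 2678 in msi2 msi3 nasp, 9384 ± 418 in hag2 msi2 msi3, 9531 ± 303 in nasp and 4942 ± 179 in the wild type (SD, n = 3 each). The mutant means were thus 4.88, 4.98, 1.90 and 1.93 times that of the wild type. Over AT2G28740 and AT3G53730 alone, a sum added after the data were seen because these genes share no 50-base stretch, the ratios were 6.22, 5.98, 2.02 and 2.35 in the same groups. As each value is a level in bulk seedling RNA, more cells that express H4 and more H4 RNA per cell cannot be told apart.

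H4 was higher again where hag2 or msi2 msi3 was combined with nasp. Against nasp itself, 8 of 8 genes were higher in hag2 nasp and 8 of 8 in msi2 msi3 nasp, where 33.5% and 33.6% of all genes were called higher. The log2 fold changes over nasp were 0.71 to 1.52 in hag2 nasp and 0.71 to 1.56 in msi2 msi3 nasp, lowest in AT1G07660 and highest in AT1G07820 both times. AT3G53730 stood 1.48 ± 0.06 above nasp in hag2 nasp (limma adjusted p = 1.09e-12) and 1.42 ± 0.06 above it in msi2 msi3 nasp (limma adjusted p = 1.81e-12). A hag2 single mutant was not analysed here, and msi2 msi3 was analysed at 20 days alone, so the interaction with nasp cannot be tested.

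Between hag2 nasp and msi2 msi3 nasp, no H4 gene was called by limma. At an unadjusted p below 0.05 it was also 0 of 8, while 6.33% of all genes were called in either direction. The log2 differences lay between -0.17 (AT3G46320, standard error 0.10) and 0.06 (AT3G53730, standard error 0.06), and the libraries of both groups overlapped for all 8 genes. A p that misses the threshold does not show that the levels were equal.

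Between hag2 msi2 msi3 and nasp the H4 sums overlapped, and 1 gene differed. AT3G53730 was lower in hag2 msi2 msi3, by -0.29 ± 0.06 (limma adjusted p = 0.00612), the only H4 gene called, where 10.7% of all genes were called in either direction. AT3G46320 stood 0.27 ± 0.10 higher (limma adjusted p = 0.117) and AT5G59970 0.25 ± 0.09 higher (limma adjusted p = 0.0948), neither called. Both passed when only these 2 groups were fitted, with limma adjusted p of 0.0449 for AT3G46320 and 0.0208 for AT5G59970. The libraries of hag2 msi2 msi3 lay all above those of nasp in 3 genes, all below in AT3G53730, and overlapped in 4. How many of all genes tested had libraries apart was not computed for any comparison. No count of genes with or without overlap given here is therefore read as a trait of H4.

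At 20 days H4 rose in both mutants. AT3G53730 had 4968, 5224 and 5843 in hag2 msi2 msi3 plants, 5637, 6076 and 6545 in msi2 msi3 and 3072.0, 3102 and 2832 in the wild type. Both mutants lay above the wild type, by 0.83 ± 0.08 in hag2 msi2 msi3 (limma adjusted p = 1.28e-05) and 1.02 ± 0.08 in msi2 msi3 (limma adjusted p = 1.10e-06). AT5G59690 had 8694, 10352 and 10432 in hag2 msi2 msi3 plants, 9514, 9732 and 10529 in msi2 msi3 and 6597, 6691 and 6118 in the wild type, a rise of 0.60 ± 0.08 and 0.62 ± 0.08. AT2G28740 had 2379.7, 2259.9 and 2528 in hag2 msi2 msi3 plants, 2872, 2846 and 2976 in msi2 msi3 and 1722, 1620.3 and 1759.7 in the wild type. It was the only H4 gene for which the libraries of the 2 mutants did not overlap, with hag2 msi2 msi3 below msi2 msi3. Its rise was 0.49 ± 0.07 in hag2 msi2 msi3 plants and 0.77 ± 0.07 in msi2 msi3.

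The paired genes showed the same at 20 days. AT5G59970 had 2156, 2484 and 2400.3 in hag2 msi2 msi3 plants, 2402, 2671 and 2813 in msi2 msi3 and 1381, 1303 and 1324 in the wild type. AT1G07820 had 3707, 4595 and 4629 in hag2 msi2 msi3 plants, 4541, 4905 and 5231 in msi2 msi3 and 2455, 2740.1 and 2427 in the wild type. For both, every mutant library was above every wild type one, and AT5G59970 rose by 0.81 ± 0.08 and 0.97 ± 0.08 and AT1G07820 by 0.76 ± 0.09 and 0.94 ± 0.09, in hag2 msi2 msi3 plants and msi2 msi3. AT3G45930 had 1632, 1796 and 1952 in hag2 msi2 msi3 plants, 1966, 1797 and 2213 in msi2 msi3 and 1071, 1178 and 958 in the wild type. AT3G46320 had 1526, 1837 and 1662 in hag2 msi2 msi3 plants, 1725, 1761 and 1876 in msi2 msi3 and 1082, 1148 and 993 in the wild type. These genes too were apart from the wild type in every library, with rises of 0.75 ± 0.10 and 0.90 ± 0.10 for AT3G45930 and 0.64 ± 0.09 and 0.74 ± 0.09 for AT3G46320. AT1G07660 had 643, 802 and 824 in hag2 msi2 msi3 plants, 642, 828 and 767 in msi2 msi3 and 564, 677 and 568 in the wild type. Its ranges overlapped the wild type's, and neither the difference of 0.32 ± 0.12 in hag2 msi2 msi3 (limma adjusted p = 0.184) nor that of 0.30 ± 0.12 in msi2 msi3 (limma adjusted p = 0.170) passed the test.

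**Figure D2:**
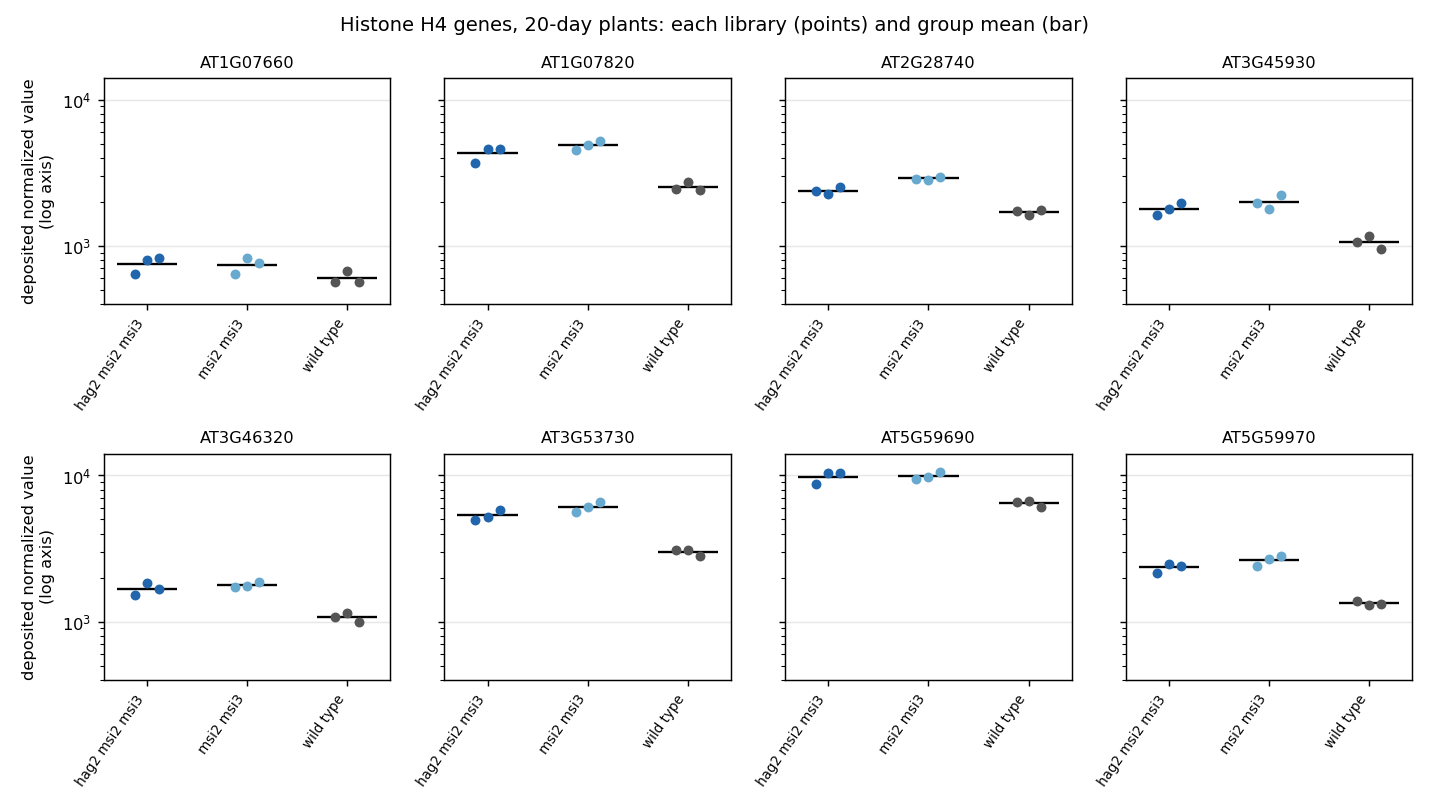
Deposited normalized values of the 8 H4 genes in 20-day plants, on a log axis, with 1 panel per gene; points are the 3 libraries of a group and bars are group means. Both mutants lie above the wild type in 7 panels and overlap it in AT1G07660, and AT5G59690 is the highest gene. The share of all genes with libraries so apart was not computed.

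Of the 8 genes, 7 rose in hag2 msi2 msi3 plants and 7 in msi2 msi3, with no log2 fold change below 0, where 2.58% and 3.45% of the 23707 genes tested were called higher. The median log2 fold change was 0.69 in hag2 msi2 msi3 plants and 0.83 in msi2 msi3. The H4 sums were 25706, 29348 and 30270.5 in hag2 msi2 msi3 plants, 29299.5, 30615 and 32950.4 in msi2 msi3 and 17943, 18458 and 16980.1 in the wild type, means of 1.60 and 1.74 times the wild type. Between hag2 msi2 msi3 and msi2 msi3, limma called no H4 gene, 2 of 8 had an unadjusted p below 0.05 (AT2G28740 and AT3G53730), and 1.19% of all genes were called in either direction. AT2G28740 had the greatest difference, -0.28 ± 0.07, with a limma adjusted p of 0.0641. For hag2 msi2 msi3, the genotype measured at both ages, the sum was 1.90 times the wild type at 12 days and 1.60 times at 20 days. The tables were normalized separately and came from different instruments and growth conditions, so the ages were set side by side and the difference was not tested.

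**Figure D3:**
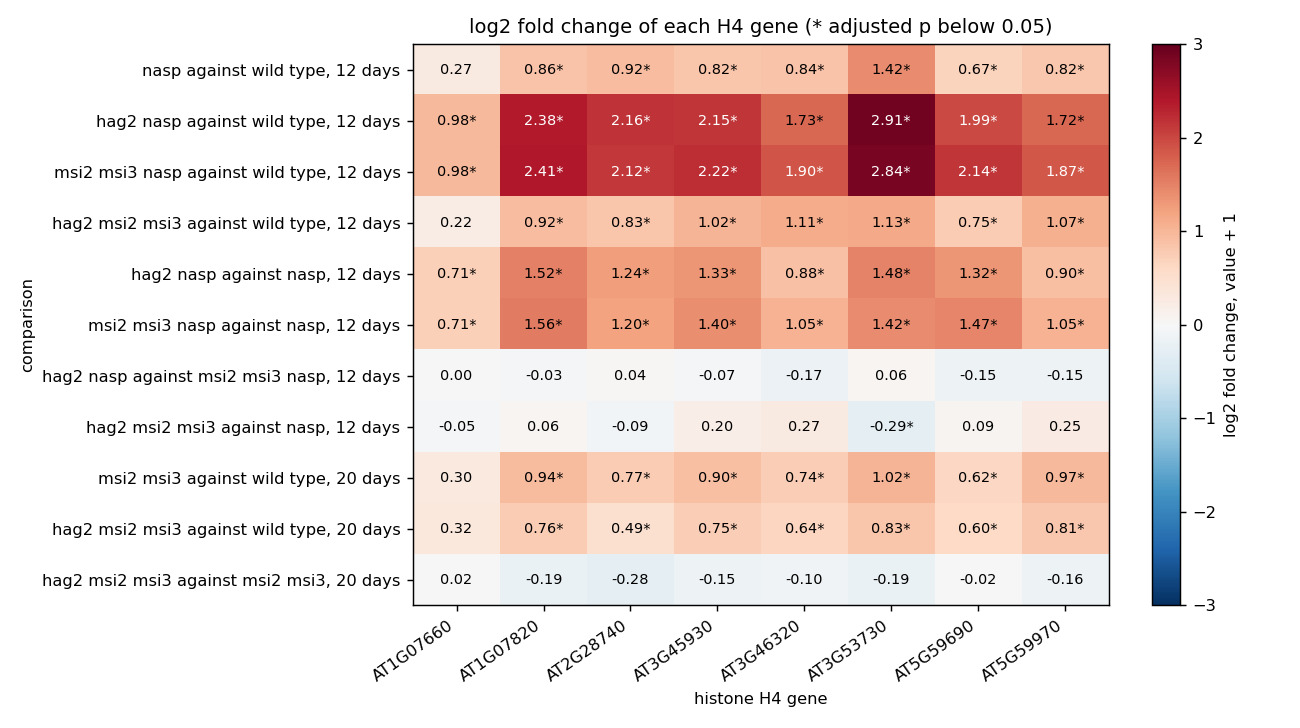
Log2 fold change, on the log2(value + 1) scale, of each H4 gene (columns) in each of the 11 comparisons (rows, the first-named group over the second); asterisks mark a limma adjusted p below 0.05. The darkest cells are AT3G53730 in hag2 nasp (2.91) and msi2 msi3 nasp (2.84), and AT1G07660 is the palest column against the wild type.

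The make-up of the H4 transcript pool differed between the groups. To compare levels between genes, each value was divided by the length of the gene's exons in kilobases. AT3G53730 made up 25.8% ± 1.49 of the summed level per length in hag2 nasp, 24.01% ± 1.56 in msi2 msi3 nasp, 18.6% ± 0.384 in hag2 msi2 msi3, 22.9% ± 0.930 in nasp and 15.9% ± 0.947 in the 12-day wild type (SD, n = 3 each). At 20 days its share was 13.7% ± 0.663 in hag2 msi2 msi3, 14.4% ± 0.304 in msi2 msi3 and 12.1% ± 0.162 in the wild type. In all 6 mutant groups its share lay above that of every wild type library of the age. AT5G59690 had the opposite course, below every wild type library of the age in all 6 mutant groups, with 26.0% ± 0.590 in hag2 nasp, 28.1% ± 0.615 in msi2 msi3 nasp, 27.4% ± 1.36 in hag2 msi2 msi3, 25.8% ± 1.13 in nasp and 30.4% ± 1.04 in the 12-day wild type. At 20 days AT5G59690 held 38.2% ± 0.762 in hag2 msi2 msi3, 35.7% ± 0.289 in msi2 msi3 and 39.7% ± 0.406 in the wild type. AT1G07660 held 1.54% ± 0.0805 in hag2 nasp, 1.50% ± 0.112 in msi2 msi3 nasp, 2.24% ± 0.0677 in hag2 msi2 msi3, 2.32% ± 0.0897 in nasp and 3.62% ± 0.507 in the wild type at 12 days. AT2G28740 kept a near-even share at 12 days, between 17.3% ± 0.747 in msi2 msi3 nasp and 19.2% ± 1.21 in nasp. At 20 days it held 9.73% ± 0.909 in hag2 msi2 msi3, 10.9% ± 0.425 in msi2 msi3 and 10.9% ± 0.904 in the wild type.

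**Figure D4:**
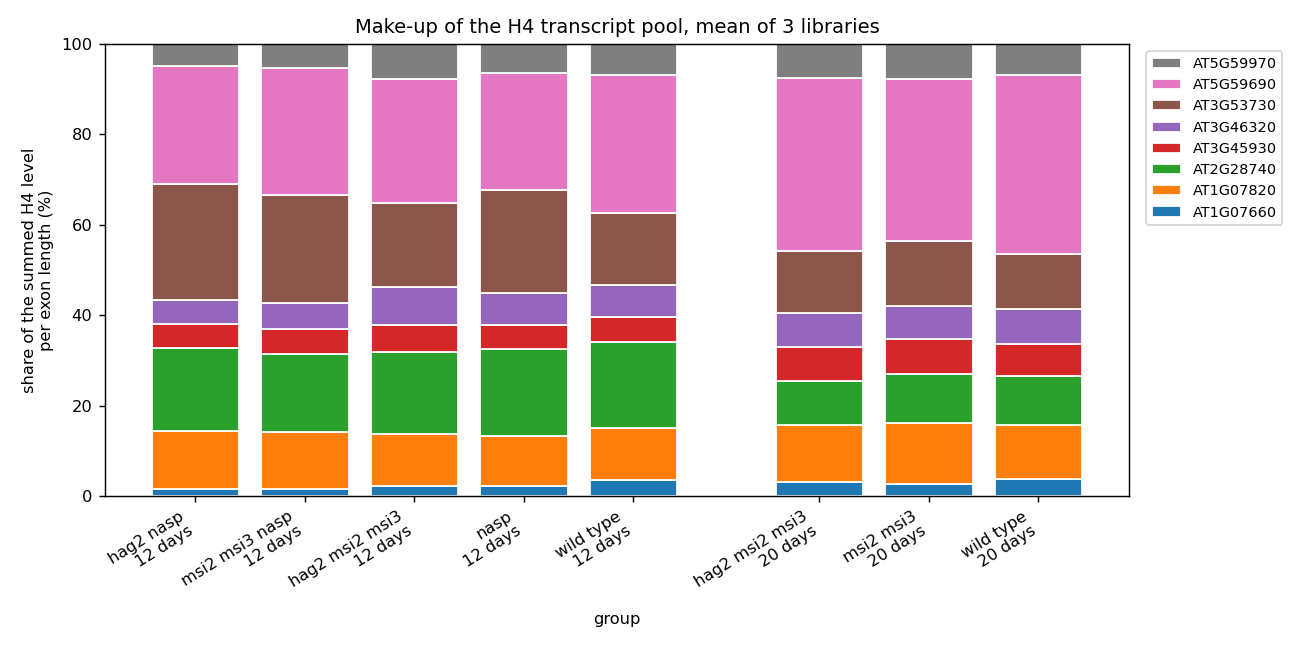
Share of each H4 gene in the summed H4 level per exon length, in percent, as the mean of 3 libraries for each of the 8 groups. The AT3G53730 segment is widest in hag2 nasp (25.8%) and narrowest in the 20-day wild type (12.1%), where AT5G59690 reaches 39.7%.

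The order of the genes per length was partly shared by all groups. AT5G59690 came first and AT1G07660 last in each. AT3G53730 came second in every group but the 12-day wild type, although it overlapped AT2G28740 in hag2 msi2 msi3 at 12 days, at 2087 ± 114 and 2018 ± 123 per kilobase. In the 12-day wild type AT2G28740 stood at 1133 ± 100.4 per kilobase and AT3G53730 at 951 ± 27.8, without overlap. In hag2 nasp, AT5G59690 stood at 7243 ± 974 and AT3G53730 at 7138 ± 473 per kilobase, and in msi2 msi3 nasp at 8051 ± 1115 and 6837 ± 370.2, neighbours that overlapped in both groups. In nasp the same genes were apart, at 2885 ± 80.8 and 2555 ± 158. At 20 days AT5G59690 stood alone at the top, at 13189.8 ± 1317 in hag2 msi2 msi3, 13322 ± 717 in msi2 msi3 and 8683 ± 413 in the wild type, and AT3G53730 overlapped AT1G07820 behind it. AT3G45930, AT3G46320 and AT5G59970 took the places from 5 to 7 in every group, and AT3G46320 overlapped at least 1 of the other 2 in each.

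Within the pair on chromosome 1, AT1G07660 supplied 8.14% ± 0.598 of the deposited values in hag2 nasp, 7.99% ± 0.606 in msi2 msi3 nasp, 12.6% ± 0.549 in hag2 msi2 msi3, 13.4% ± 0.403 in nasp and 19.0% ± 3.39 in the wild type at 12 days. At 20 days, when reads of 150 bases parted these copies fully, it supplied 14.9% ± 0.177 in hag2 msi2 msi3, 13.2% ± 1.09 in msi2 msi3 and 19.2% ± 0.575 in the wild type. A pair's sum does not depend on how shared reads were split between its copies, but would if they were dropped or counted for both. For AT1G07660, 12 of 624 stretches of 50 bases also occurred elsewhere in the genome, in no other H4 gene. Summed, AT1G07660 with AT1G07820 stood at 4.61 times the wild type in hag2 nasp and 4.70 times in msi2 msi3 nasp. The ratio was 1.76 in hag2 msi2 msi3 and 1.69 in nasp. AT3G45930 with AT3G46320 stood at 3.84, 4.18, 2.11 and 1.79 times the wild type in the same 4 groups. AT5G59690 with AT5G59970 stood at 3.84, 4.26, 1.78 and 1.63 times. The ratios of all 3 pairs were below that of AT3G53730 in each of the 4 genotypes.

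Genes for the partner histone H3 rose too. The sum over its replicative form H3.1 stood at a lower ratio to the wild type than the H4 sum in all 6 comparisons, and that over H3.3 in all but hag2 msi2 msi3 at 20 days, where H3.3 and H4 were level. All 5 genes for H3.1, deposited during replication, rose in all 6 comparisons against the wild type, or 4 of 5 in nasp when each library was divided by its total. Their sum stood at 3.60 times the wild type in hag2 nasp, 3.65 times in msi2 msi3 nasp, 1.71 times in hag2 msi2 msi3 and 1.47 times in nasp, and at 20 days at 1.41 times in hag2 msi2 msi3 and 1.55 times in msi2 msi3. The ratio of the H4 sum to the H3.1 sum of deposited values was 1.41 ± 0.0499 in hag2 nasp, 1.42 ± 0.0273 in msi2 msi3 nasp, 1.16 ± 0.0182 in hag2 msi2 msi3, 1.37 ± 0.0805 in nasp and 1.04 ± 0.0184 in the 12-day wild type. At 20 days it was 1.36 ± 0.0382 in hag2 msi2 msi3, 1.35 ± 0.0220 in msi2 msi3 and 1.20 ± 0.0430 in the wild type. Among the H3.1 genes, AT1G09200 rose by 2.18 ± 0.09 in msi2 msi3 nasp and AT5G65360 by 1.64 ± 0.06. Of the 3 genes for H3.3, deposited outside replication, 2 rose in hag2 nasp seedlings, 2 in msi2 msi3 nasp and all 3 in each of the other mutants at both ages. Among all genes tested, the share called higher was 33.1% and 33.6% for these nasp combinations. For the other mutants it was 2.08 to 3.45%, so a call sets an H3 gene less apart in the nasp combinations. The H3.3 sum stood at 2.26 times the wild type in hag2 nasp, 2.37 times in msi2 msi3 nasp, 1.56 times in hag2 msi2 msi3 and 1.77 times in nasp, and at 20 days at 1.60 times in hag2 msi2 msi3 and 1.68 times in msi2 msi3. It was thus below the H3.1 ratio in 3 of the 4 mutants at 12 days, and above it in nasp and in both 20-day mutants. AT5G10980 rose by 2.23 ± 0.06 in msi2 msi3 nasp and AT4G40040 by 1.26 ± 0.07.

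Genes for H2A and H2B, the histones that do not pair with H4 before deposition, had lower sums relative to the wild type than H4. The H2A sums stood at 2.27, 2.30, 1.33 and 1.11 times the wild type and the H2B sums at 2.07, 2.14, 1.35 and 1.29 times, in hag2 nasp, msi2 msi3 nasp, hag2 msi2 msi3 and nasp at 12 days. Of 6 H2A and H2A.X genes, 6 rose in hag2 nasp, 6 in msi2 msi3 nasp, 6 in hag2 msi2 msi3 and 3 in nasp, with medians of 1.19, 1.16, 0.45 and 0.27. At 20 days 1 rose in hag2 msi2 msi3 plants and 5 in msi2 msi3. In msi2 msi3 nasp, H2AXA, an H2A.X gene, rose by 1.44 ± 0.05 and HTA10, an H2A gene, by 1.02 ± 0.06. Of 10 H2B genes tested, 9 rose in hag2 nasp, 9 in msi2 msi3 nasp, 7 in hag2 msi2 msi3 and 8 in nasp, with medians of 0.80, 0.93, 0.48 and 0.38. At 20 days 3 rose in hag2 msi2 msi3 plants and 6 in msi2 msi3. Beside these H2A and H2B counts, the share of all genes called higher was 33.1% and 33.6% for the nasp combinations. It was 2.08% for the 12-day hag2 msi2 msi3 and 2.5% for nasp. For the 20-day mutants it was 2.58% and 3.45%, in the order given. The H2B list was uneven, since AT3G53650 rose by 3.76 ± 0.11 and AT3G09480 by 2.96 ± 0.13 in msi2 msi3 nasp, above every H4 gene, while its lowest member stood at -0.69. AT3G53650 lies 22134 bases from AT3G53730. Of 10 other chaperones of H3 and H4, 5 rose in hag2 nasp seedlings, 4 in msi2 msi3 nasp seedlings and 1 in hag2 msi2 msi3 at 12 days. In both nasp combinations these counts were near the share of all genes called higher, 33.1% and 33.6%. In nasp and at 20 days limma called 0 of 10, with 0 at an unadjusted p below 0.05 in nasp, 1 in the 20-day hag2 msi2 msi3 and 0 in msi2 msi3. In msi2 msi3 nasp MSI1 rose by 0.52 ± 0.07 and FAS2, a subunit of chromatin assembly factor 1 as MSI1 is, by 0.59 ± 0.15.

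Of 26 DNA replication genes, limma called 0 in nasp (2 at an unadjusted p below 0.05, median -0.04). In hag2 msi2 msi3 at 12 days, where 2.08% of all genes were called higher, 3 were higher (median 0.16). There 8 of 26 had an unadjusted p below 0.05, beside 4287 of the 24305 genes tested. At 20 days, where 2.58% and 3.45% of all genes were called higher, limma called 0 of 26 in hag2 msi2 msi3 and 1 higher in msi2 msi3. In the former, 1 had an unadjusted p below 0.05. In hag2 nasp 15 were higher and 2 lower, and in msi2 msi3 nasp 16 higher and 3 lower, with medians of 0.30 and 0.30. Among all genes tested, 33.1% were called higher and 33.2% lower in hag2 nasp, and 33.6% higher and 33.3% lower in msi2 msi3 nasp. The leading genes in msi2 msi3 nasp were TSO2, a ribonucleotide reductase subunit, at 1.43 ± 0.06 and TK1a, a thymidine kinase, at 1.43 ± 0.08. Of 11 mitotic genes, 8 fell and 1 rose in hag2 nasp, and 8 fell and 1 rose in msi2 msi3 nasp, with medians of -0.74 and -0.59, where 33.2% and 33.3% of all genes were called lower. The one that rose was the cyclin gene CYCB1;1, at 1.75 ± 0.10 in msi2 msi3 nasp, and among those that fell was the B-type cyclin gene AT5G06150 at -1.12 ± 0.10. At 12 days 2 mitotic genes rose and 0 fell in hag2 msi2 msi3, and 2 rose and 0 fell in nasp. Of all genes, 2.08% and 2.5% were called higher there. At an unadjusted p below 0.05 it was 8 of 11 mitotic genes in hag2 msi2 msi3 and 4 in nasp. The 2 calls in nasp were lost when each library was divided by its total. At 20 days 1 fell and 0 rose in either mutant. Of all genes, 1.96% were called lower in the 12-day hag2 msi2 msi3, 1.39% in nasp, 1.71% in the 20-day hag2 msi2 msi3 and 4.15% in msi2 msi3.

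**Figure D5:**
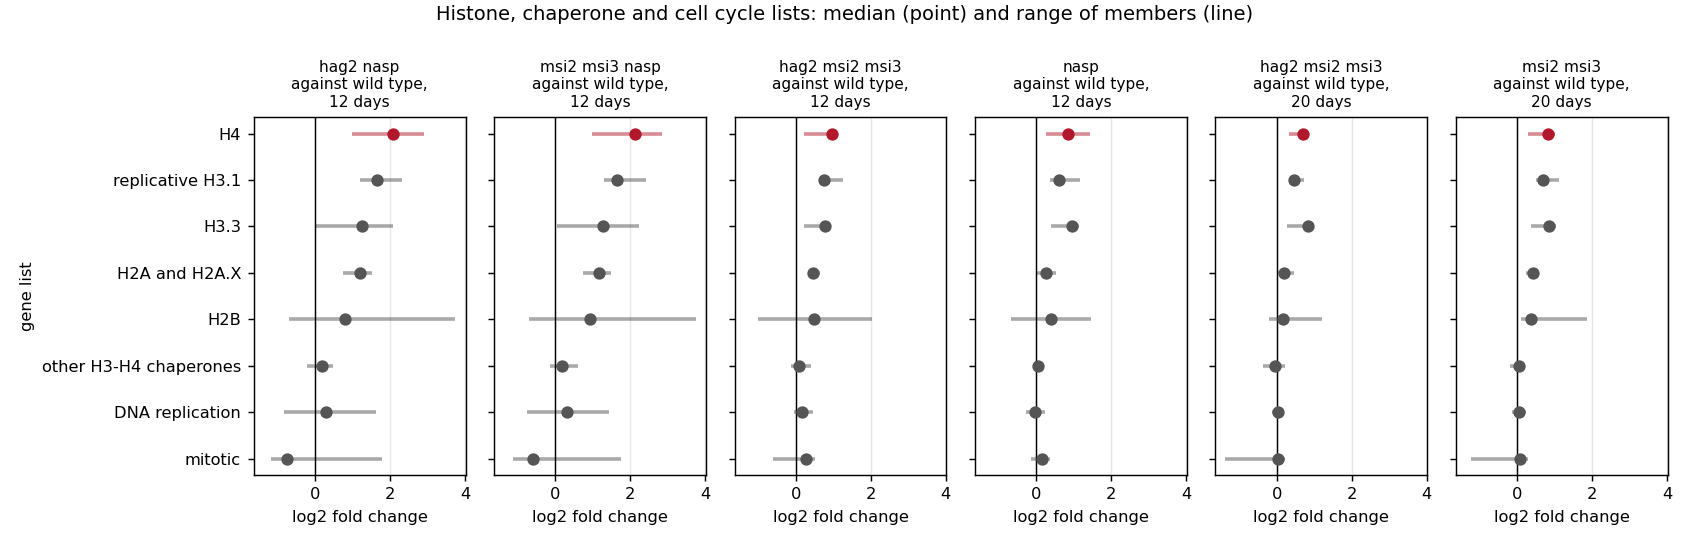
Median (points) and range over tested members (lines) of the log2 fold changes in lists of histone, chaperone and cell cycle genes, in the 6 comparisons with a wild type. The H4 median is the highest of the 8 lists in every panel but those of nasp and of both 20-day mutants, where H3.3 lies above it.

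Summed markers of tissue make-up also differed from the wild type in the nasp combinations. The summed level of 4 green shoot markers was 169709 to 185659 in hag2 nasp, 169507 to 204753 in msi2 msi3 nasp, 466306 to 564820.0 in hag2 msi2 msi3, 519715 to 588372 in nasp and 404154 to 436341 in the wild type at 12 days. That of 5 root markers was 335 to 381 in hag2 nasp, 248 to 276 in msi2 msi3 nasp, 1346 to 1855 in hag2 msi2 msi3, 1646 to 1848 in nasp and 1452 to 1532 in the wild type. All 4 green shoot and all 5 root markers fell in both nasp combinations, where 33.2% and 33.3% of all genes were called lower. In hag2 msi2 msi3, LHCB2.1, a light-harvesting protein gene, had a log2 fold change of -0.92 ± 0.09 (limma adjusted p = 1.21e-05), 1 green shoot marker rose and 0 of 5 root markers passed the test or had an unadjusted p below 0.05. In nasp 2 of 4 green shoot markers rose, and again 0 of 5 root markers passed the test or had an unadjusted p below 0.05. Of all genes, 2.08% were called higher in hag2 msi2 msi3 and 2.5% in nasp. The summed level of 3 shoot meristem markers was 59.6 to 79.3 in hag2 nasp, 57.4 to 81.8 in msi2 msi3 nasp, 26.8 to 34.6 in hag2 msi2 msi3, 14.3 to 37.2 in nasp and 20.4 to 27.8 in the wild type, with 2 of 3 at a mean under 1 in the wild type. Flower markers (3 genes) summed to 78.3 to 89.6 in hag2 nasp, 51.5 to 66.5 in msi2 msi3 nasp, 36.9 to 52.6 in hag2 msi2 msi3, 16.8 to 23.8 in nasp and 17.2 to 33.9 in the 12-day wild type. Single flower markers went both ways, with log2 fold changes from -0.42 to 2.39 in hag2 nasp and from -0.75 to 1.78 in msi2 msi3 nasp. At 20 days the flower markers summed to 584 to 641 in hag2 msi2 msi3, 821 to 888 in msi2 msi3 and 281 to 353 in the wild type. At 20 days, shoot meristem markers summed to 651 to 916, 721 to 798 and 495 to 618 in these groups, and root markers to 149 to 198, 41.6 to 47.8 and 53.1 to 81.7, with 2 of 5 at a mean under 1 in the wild type. Single root markers tested at 20 days ranged from -0.06 to 1.68 in hag2 msi2 msi3 and from -3.05 to 1.85 in msi2 msi3. The part of all these markers in the H4 levels was not tested.

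The regions upstream of the 8 genes were alike in 1 pair only. Over the 250 bases before the annotated start, compared base by base without gaps, AT3G45930 and AT3G46320 differed at 3 bases (98.8% identity), and the other 27 pairs were 22.0 to 35.2% identical. The pair is shown because 2 genes with nearly the same upstream sequence and protein can be set side by side in their levels. Capitals mark the 3 differing bases, in chr3:16883066-16883315 (plus strand) and chr3:17020429-17020678 (minus strand) of TAIR10.1.
AT3G45930: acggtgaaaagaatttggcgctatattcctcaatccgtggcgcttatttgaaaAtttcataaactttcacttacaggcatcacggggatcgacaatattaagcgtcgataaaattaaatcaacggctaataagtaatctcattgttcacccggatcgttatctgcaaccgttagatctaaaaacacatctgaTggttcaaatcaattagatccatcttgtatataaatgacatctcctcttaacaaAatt
AT3G46320: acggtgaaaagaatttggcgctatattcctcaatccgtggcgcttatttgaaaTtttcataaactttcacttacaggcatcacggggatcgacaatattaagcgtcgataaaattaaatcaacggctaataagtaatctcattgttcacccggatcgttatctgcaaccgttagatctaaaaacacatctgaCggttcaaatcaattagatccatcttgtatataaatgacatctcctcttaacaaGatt
The log2 fold changes of AT3G45930 and AT3G46320 were 2.15 and 1.73 in hag2 nasp seedlings, 2.22 and 1.90 in msi2 msi3 nasp seedlings, 1.02 and 1.11 in hag2 msi2 msi3 and 0.82 and 0.84 in nasp. At 20 days, when the reads parted the copies almost fully, they were 0.75 and 0.64 in hag2 msi2 msi3 and 0.90 and 0.74 in msi2 msi3.

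Among short motifs known from plant histone and replication promoters, the octamer CGCGGATC was found on either strand in 2 of the 8 H4 windows and in 0.135% of 27443 windows of the same length before protein-coding genes. It was also in 3 of 5 H3.1, 1 of 3 H3.3, 2 of 6 H2A and H2A.X and 0 of 11 H2B windows and in 0 of 26 windows of the DNA replication genes. Its first base stood at -126 from the start of AT1G07660 and at -71 from that of AT5G59690. The windows are shown with the octamer in capitals, at chr1:2368583-2368832 and chr5:24051224-24051473, both on the plus strand of TAIR10.1.
AT1G07660: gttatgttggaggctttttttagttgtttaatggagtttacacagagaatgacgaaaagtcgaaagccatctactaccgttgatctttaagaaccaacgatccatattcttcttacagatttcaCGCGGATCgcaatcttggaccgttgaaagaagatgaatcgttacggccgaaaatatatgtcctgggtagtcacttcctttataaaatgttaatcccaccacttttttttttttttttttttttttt
AT5G59690: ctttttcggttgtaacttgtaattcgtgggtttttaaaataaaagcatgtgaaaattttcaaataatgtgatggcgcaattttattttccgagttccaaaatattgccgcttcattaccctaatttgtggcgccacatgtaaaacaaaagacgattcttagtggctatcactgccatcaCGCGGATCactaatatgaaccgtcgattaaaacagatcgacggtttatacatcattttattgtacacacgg
AT1G07660 and AT5G59690 were the lowest and the highest H4 gene per length in every group. The hexamer ACGTCA was in 0 of 8 H4 windows, 8 of 11 H2B windows and 7.69% of all. The nonamer CATCCAACG was in 0 of 8 and 0.149% of all. The letters TTTCCCGC, a site of E2F factors, were in 0 of 8 H4 windows, 8 of 26 windows of the DNA replication genes and 0.619% of all. Motifs were searched on both strands and do not overlap each other in the H4 windows. A match is a description of letters, and an absent match says only that these letters are not in this window.

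The genes whose pattern came nearest to H4 included other histone genes. Likeness was the root mean square difference between a gene's 6 log2 fold changes against the wild type of its age and the medians of the 8 H4 genes, over 19983 genes tested at both ages with a mean of at least 5 in each wild type group. The nearest was AT1G09200, an H3.1 gene, at 0.109. NRPE3B, a subunit of plant RNA polymerases, followed at 0.134, then AT5G10980, an H3.3 gene, at 0.172. AT4G33970 and FBS1 came next, both at 0.231, then AT3G27360, an H3.1 gene, at 0.263 and AT4G34400 at 0.268. The last was HTA7 at 0.274, a variant H2A gene that was not in the list of H2A and H2A.X genes above. The H4 genes themselves lay between 0.0653 (AT3G45930) and 0.797 (AT1G07660), with AT3G53730 at 0.522, so these 2 members were farther from the family's median than all 8 genes named. The comparisons share their wild type libraries, and the measure has no test.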

How the data were processed

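RNA was extracted with TRIzol and sequenced from 1 end over 50 bases on a DNBSEQ instrument at 12 days and from both ends over 150 bases on a NovaSeq instrument at 20 days, per the labels' protocols. The tools bcl2fastq, HISAT2 and edgeR are named in the submitters' processing notes, with the TAIR10 build and no versions. The counting and normalization steps are not given in the sources used here. Both deposited tables, for 1 age each, hold signal values, which the authors had normalized and which are not whole, so read counts were not recovered and a planned count test was not used. In the 20-day table, 72771 cells under 1e-06 were set to 0. Values were taken as log2(value + 1), which understates the change of low genes. A gene was kept where 3 or more libraries of the age reached a value of 1, which left 24305 genes at 12 days and 23707 at 20 days. All groups of an age entered 1 limma fit (version 3.58.1 in R 4.3.3; lmFit and eBayes, trend on) without a replicate block, and p-values were adjusted by Benjamini-Hochberg over all kept genes, with 0.05 as the threshold. The fit was tested on simulated data. Sums, shares and ratios have no test. Errors are the SD over 3 libraries for means and the fit's standard error for log2 fold changes. Gene models, coding sequences and upstream windows were read from TAIR10.1 (RefSeq), whose locus tags matched all 32548 identifiers. The H4 genes, the gene lists, the tests and the motifs were chosen with earlier results of these data known. Besides the H4 genes, the text names at most 2 members of a list, those with the lowest adjusted p in msi2 msi3 nasp against the wild type, and the 8 genes nearest to H4 in pattern. Alternatives changed the scaling, the pseudocount, the filter, the groups fitted, the replicate block and the libraries used.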

Additional observations from a re-analysis of the deposited data

How the results depend on the processing

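No call of an H4 gene against a wild type was lost under any alternative run, and none reversed. Of 1880 recomputed log2 fold changes of single H4 genes, 1859 kept their direction and side of the threshold, 6 newly passed and 15 uncalled ones changed sign, all in comparisons between mutants. In hag2 msi2 msi3 against nasp, the H4 genes called numbered 2 with each library divided by its total, 3 with only the groups compared fitted and 1 to 2 with 1 library left out, 2 without hag2 nasp replicate 3. In hag2 msi2 msi3 against msi2 msi3 at 20 days, 1 was called with each library divided by its total. The gene with the highest deposited values in a comparison was also left out of the H4 sums. Without AT3G53730, the ratio to the wild type was 4.14 for hag2 nasp, 4.37 for msi2 msi3 nasp and 1.72 for nasp. In full these ratios were 4.88, 4.98 and 1.93. For msi2 msi3 at 20 days the gene left out was AT5G59690, and the ratio was 1.86, beside 1.74 in full. Without AT3G53730, the ratio of hag2 msi2 msi3 to nasp was 1.06. Over AT2G28740 and AT3G53730 alone, chosen after seeing the data, the ratio to the wild type was 6.22, 5.98, 2.35 and 1.91 in the same 4 mutant groups. In hag2 msi2 msi3 at 12 days it was 2.02 against the wild type and 0.860 against nasp. Over all genes, the count called fell by more than 1.5 times in 25 cases, each 1 comparison in a fit that left out 1 library. Several cases came from the same fit. In nasp against the wild type it was 519 without nasp replicate 2 and 945 in full. In hag2 msi2 msi3 at 12 days it was 441 without wild type replicate 2 and 982 in full. With only the groups compared fitted, it was 814 in place of 1539 in hag2 nasp against msi2 msi3 nasp and 177 in place of 281 in hag2 msi2 msi3 against msi2 msi3. The cause of these shifts was not tested.

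No pairing of the libraries by replicate number was seen, which does not exclude it. Deviations of same-numbered libraries from their group means correlated at -0.056 to 0.096 over 30 pairs at 12 days and at -0.033 to 0.052 over 9 pairs at 20 days. With the replicate number as a block, the H4 genes called against the wild type were 8 in hag2 nasp, 8 in msi2 msi3 nasp, 7 in hag2 msi2 msi3 and 7 in nasp at 12 days, and 7 in each 20-day mutant, as without it.

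The reads behind a value are unknown, so no limit from depth could be set. Values of AT1G07660, AT1G07820, AT3G45930 and AT3G46320 at 12 days, and less so of AT5G59690 and AT5G59970, are limited by shared sequence.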
